A study of Mus musculus with 6 samples.

Results

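Proteins that leave the cell by the secretory route first cross or enter the membrane of the endoplasmic reticulum (ER), and the genes described here make the machinery of that step. They are 34 mouse genes, listed by name, that encode the signal recognition particle, its receptor, the Sec61 channel with Sec62 and Sec63, the TRAP complex, the TRAM proteins, signal peptidase and the oligosaccharyltransferase. Each gene was read by the brightest of the probe sets annotated to that gene alone, by mean signal over all arrays, and 32 of the 34 had such a probe set, out of 18193 genes read in this way. Srp54a, which binds the signal sequence, is covered by 3 probe sets and Sec61g, a small channel subunit, by 1, each of them shared with other genes, and neither gene is given a value.

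The cells were MC3T3-E1 subclone 4, a clonal mouse osteoblastic line. They were grown in an α-MEM that contains no ascorbic acid of its own, with heat-inactivated fetal bovine serum. Ascorbic acid (AA) was added to 3 cultures at 50 µg/ml and kept on for 5 days, and 3 control cultures were left untreated for the same 5 days. RNA of every culture went onto a separate Affymetrix mouse expression array. Whether the replicates were wells or separate experiments is not settled by the sources used here. The p-values therefore apply to these samples and set differences between same-numbered AA and control arrays against a moderated variance. That variance joins the spread of those differences (2 residual degrees of freedom) with a trend over all probe sets (6.18 prior degrees of freedom). The SEs and intervals below use the same variance and rest more on the trend than on a gene's own spread. Signals are given as deposited, on a linear scale without unit, while fold changes are AA over control from quantile-normalized log2 signals fitted with limma, with p-values adjusted over all 45037 probe sets tested and a threshold of 0.05.

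A ribosome that has begun to make a secreted protein is recognised by the signal recognition particle and brought to the SRP receptor, and the growing chain is then threaded through Sec61 into the ER lumen. There signal peptidase removes the signal sequence and the oligosaccharyltransferase moves a preassembled glycan from dolichol onto asparagine residues. Osteoblasts are known for sending large amounts of type I procollagen through this gate, and AA is the cofactor of the enzymes that hydroxylate procollagen in the lumen. Signals of different probe sets are not comparable as amounts of mRNA, so genes are compared below only by how they differed between AA and control.

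Of the 32 genes read, 8 were higher and 1 was lower in AA-treated cells than in control cells, and 23 did not pass the test. The 8 that rose were spread over 6 of the groups and were Srp19, Sec61a1, Sec61b, Ssr3, Tram1, Sec11c, Ostc and Tusc3, while the gene that fell was Sec61a2. The rises were small, between 1.23-fold (Sec61b) and 1.69-fold (Sec11c). Over all genes read, 4.07% were higher and 3.85% lower at the same threshold. All 32 members lay among the 25% of genes with the highest mean signal, where calls were more frequent, 9.17% higher and 9.06% lower. A positive log2 fold change was found for 27 of the 32 genes and a negative one for 5, and their median was 0.14, against -0.02 over all genes and -0.02 over the brightest 25%. The median of the members' log2 differences, AA minus control, was 0.20, 0.21 and 0.16 between the arrays of replicates 1, 2 and 3.

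**Figure D1:**
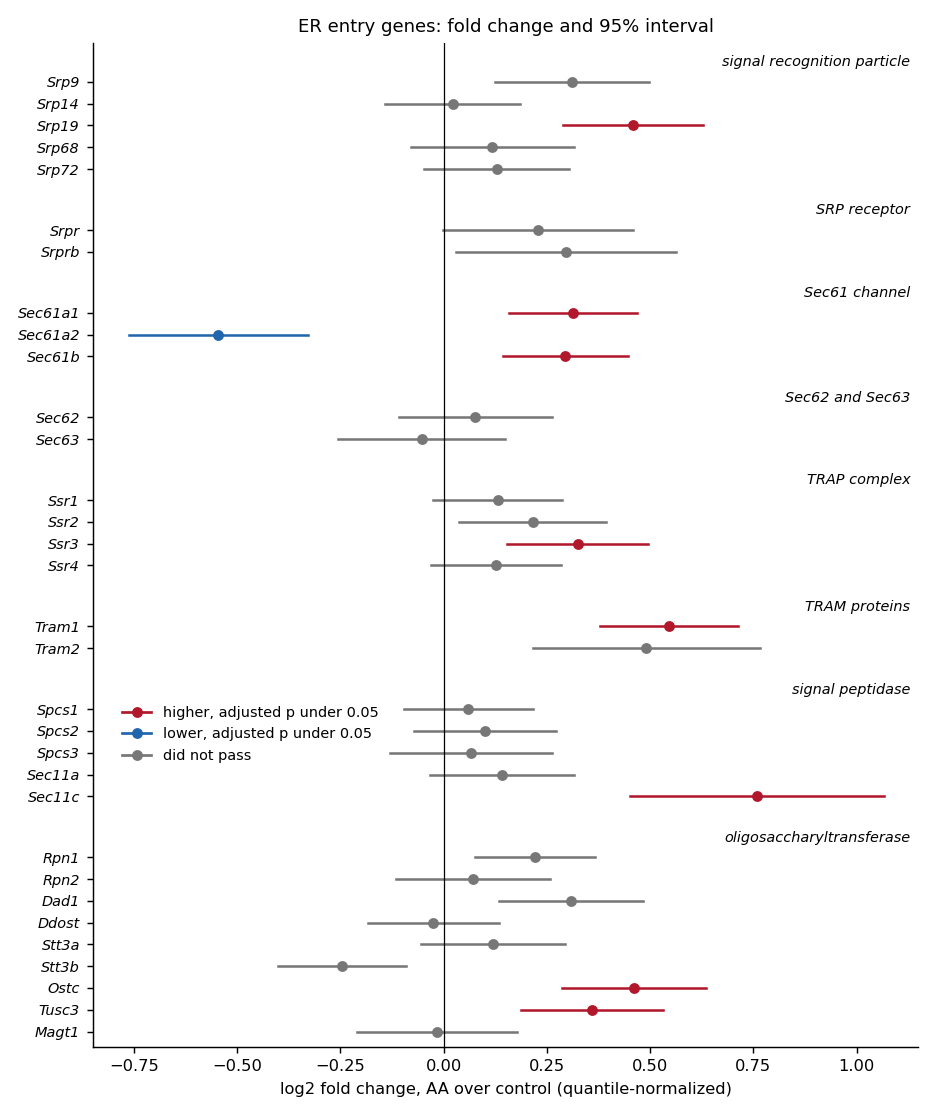
The log2 fold change, AA over control, of the 32 genes read (x axis, quantile-normalized signals, n = 3 arrays per group) is plotted as a point with its 95% interval from limma, with the genes on the y axis grouped by complex. The 8 genes in red passed the test as higher and Sec61a2, in blue, as lower, and most of the grey points lie to the right of 0.

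The normalized values of the 3 AA arrays all lay above those of the 3 control arrays for 15 of the 32 genes, all below for 2 (Sec61a2 and Stt3b), and overlapped for 15. Over all genes read, 13% separated in the higher direction and 15.1% in the lower direction. Counting the members whose value lay above their own mean over the 6 arrays gave 26, 28 and 24 on the AA arrays. On the control arrays it gave 10, 6 and 11. This count was not taken over other genes. Control replicate 3 had the highest ratio of 3' to 5' signal for both control transcripts on the array, 0.920 for Gapdh against 0.791 to 0.809 on the other arrays and 1.79 for actin against 1.35 to 1.45, a measure that rises when RNA is less intact. With this array left out and no block for the replicate number, 6 members were higher (Srp19, Srpr, Sec61b, Tram1, Dad1 and Ostc) and 1 lower (Sec61a2). With both arrays of replicate 3 left out and the block kept, 10 were higher (Srp9, Srp19, Srpr, Srprb, Sec61b, Tram1, Tram2, Sec11c, Dad1 and Ostc) and 1 lower (Sec61a2). Over all probe sets, the fit without control replicate 3 called 742 higher and 561 lower, against 1089 and 1039 with all arrays and no block. The fit without both arrays of replicate 3 called 1169 and 994, against 1219 and 1124 with all arrays and the block.

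**Figure D2:**
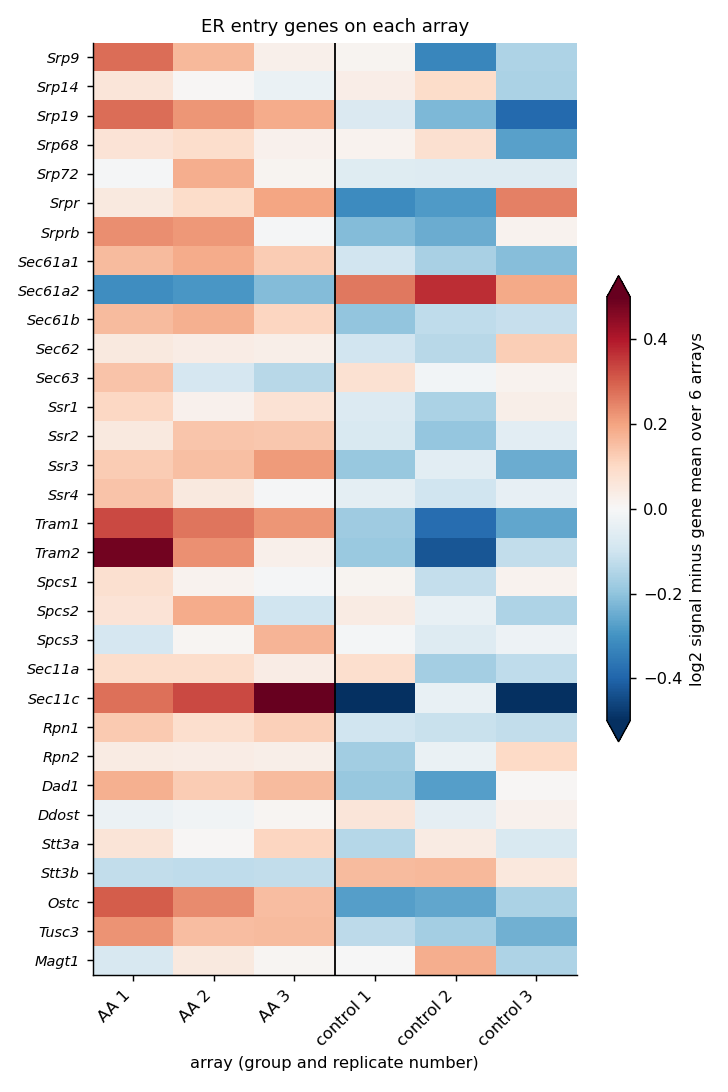
Each cell is the quantile-normalized log2 signal of a gene on an array minus that gene's mean over the 6 arrays (colour scale, cut at 0.5 in either direction), with AA arrays on the left and control arrays on the right. Most rows are red on the AA arrays and blue on the control arrays, with Sec61a2 and Stt3b the other way round, and Srpr stands high on control replicate 3.

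Promoter sequence was looked up for the genes that passed, because genes of the ER are known targets of stress-regulated factors with defined binding motifs. The promoter table used here, drawn from RefSeq (GRCm38.p6), covers 25 of the 34 members, and of the genes that passed Sec61b, Ssr3 and Sec61a2. Promoters of Srp19, Srp68, Sec61a1, Ssr2, Tram1, Spcs3, Sec11c, Ostc and Tusc3 were not analysed here. The 250 bases before the annotated start are printed 5′ to 3′ on the gene's strand, with the CCACG half-site of the ER stress element, or its complement CGTGG, in capitals.
Sec61b, chr4:47474411-47474660, plus strand: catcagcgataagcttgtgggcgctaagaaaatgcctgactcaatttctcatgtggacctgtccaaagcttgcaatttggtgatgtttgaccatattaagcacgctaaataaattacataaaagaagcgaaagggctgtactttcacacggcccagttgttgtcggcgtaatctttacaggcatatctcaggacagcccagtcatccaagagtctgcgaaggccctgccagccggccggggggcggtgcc
Ssr3, chr3:65392554-65392803, minus strand: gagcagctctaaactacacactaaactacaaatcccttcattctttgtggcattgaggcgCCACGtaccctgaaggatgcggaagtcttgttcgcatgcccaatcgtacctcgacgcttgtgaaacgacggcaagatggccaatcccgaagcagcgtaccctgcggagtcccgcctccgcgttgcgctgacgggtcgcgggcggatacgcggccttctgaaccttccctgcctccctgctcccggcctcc
Sec61a2, chr2:5895433-5895682, minus strand: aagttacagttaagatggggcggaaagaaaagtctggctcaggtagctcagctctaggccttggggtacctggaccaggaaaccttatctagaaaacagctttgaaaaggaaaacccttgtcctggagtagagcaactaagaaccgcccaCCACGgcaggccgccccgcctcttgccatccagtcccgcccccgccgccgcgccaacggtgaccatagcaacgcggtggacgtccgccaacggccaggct
Sec61b, which rose, holds no CCACG in this window, whereas Ssr3, which rose, and Sec61a2, which fell, each hold 1.

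The whole ER stress element (ERSE), a CCAAT separated by 9 bases from a CCACG, was found on either strand in 0 of the 25 member promoters and in 0.13% of the 27025 genes with an entry. ERSE-II, an ATTGG separated by 1 base from a CCACG, was found in 0 of 25 and in 0.037% of genes, and TGACGTGG, the core of the element read by XBP1 and ATF6, in 0 of 25 and in 0.603%. Since each of these holds CCACG or its complement, the half-site was also counted on its own. It was present in 13 of 25 member promoters (52.0%) and in 31.0% of all genes, and CCAAT, on either strand, in 12 of 25 (48.0%) and in 37.5%. Member promoters had a median GC content of 59.2%, against 52.4% over all promoters. A match here is only a description of the letters in this window.

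The signal recognition particle was read through 5 of its 6 listed protein subunits, of which Srp19 alone passed. Srp19 binds the RNA of the particle so that the signal-binding subunit can join it. Its signal (probe set 1450891_at) was 2378, 2262 and 2117 on the AA arrays and 1776, 1569 and 1438 on the control arrays, with no overlap. The fold change was 1.37 (95% interval 1.22 to 1.55; log2 0.46 ± 0.07, SE, adjusted p = 0.0116), and the call was kept in 4 of the 9 fits that left out a replicate pair or an array.

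Srp9 and Srp14 form the dimer that slows the ribosome while it is brought to the ER, and neither passed. Srp9 had signals of 2074, 1878 and 1664 in AA-treated cells and 1648, 1292 and 1479 in control cells, without overlap but with wide spread, and its log2 fold change was 0.31 (adjusted p = 0.0735). The second Srp9 probe set gave 0.24 on the same scale. Srp14 differed by 0.02 on the log2 scale, with an interval of -0.14 to 0.19, and its 4 probe sets lay between -0.09 and 0.02. Srp68 and Srp72, which form the large dimer of the particle, differed by 0.12 and 0.13 on the log2 scale, with adjusted p = 0.550 and 0.445.

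The SRP receptor consists of Srpr, the α subunit that docks the particle, and Srprb, the membrane-anchored β subunit, and neither passed at its brightest probe set. Srpr had signals of 1093, 1129 and 1214 in AA-treated cells and 858, 856 and 1263 in control cells. The groups overlapped because of control replicate 3, whose signal was the highest of all 6 arrays. Srpr differed by 0.23 on the log2 scale (interval just below 0 to 0.46, adjusted p = 0.280), and it passed as higher in each of the fits without control replicate 3. Srprb likewise had 395, 396 and 348 in AA-treated cells and 302, 296 and 359 in control cells, with control replicate 3 above AA replicate 3. A dimmer Srprb probe set passed, with signals of 165, 198 and 155 in AA-treated cells and 106, 125 and 106 in control cells (log2 fold change 0.64, adjusted p = 0.0172).

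In the Sec61 channel, all 3 subunits that could be read passed, Sec61a1 and Sec61b as higher and Sec61a2 as lower. Sec61a1 forms the pore of the channel and was measured at 2960, 2987 and 2721 in AA-treated cells and 2350, 2142 and 2181 in control cells with probe set 1416189_a_at. The lowest AA array lay above the highest control array. The rise was 1.24-fold (95% interval 1.12 to 1.38; log2 0.31 ± 0.07, SE, adjusted p = 0.0366), and at this probe set the call was kept in 1 of 9 fits with a pair or an array left out. Of the 6 probe sets of Sec61a1, 4 passed as higher, and the log2 fold changes of all 6 lay between 0.26 and 1.07. The size of the rise therefore depended on the probe set, from 1.24-fold at the brightest to a log2 fold change of 1.07 at 1416190_a_at (adjusted p = 0.00506), which had signals of 202, 200 and 213 in AA-treated cells and 114, 111 and 76.5 in control cells.

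Sec61b, a small tail-anchored subunit of the channel, had signals of 5244, 5130 and 4465 in AA-treated cells and 3774, 3617 and 3914 in control cells (probe set 1417083_at, its only one). The groups did not overlap, and the rise was 1.23-fold (log2 0.29 ± 0.07, SE, adjusted p = 0.0430), a call kept in 2 of 9 such fits. Sec61a2, a paralogue of Sec61a1 that can also form the pore, went the other way. Its signal (probe set 1449944_a_at) was 260, 265 and 285 in AA-treated cells and 399, 434 and 381 in control cells, so that each AA array lay far below each control array. The fold change was 0.685 (95% interval 0.589 to 0.796; log2 -0.55 ± 0.09, SE, adjusted p = 0.0153), and the call was kept in 7 of 9 fits with a pair or an array left out. The second Sec61a2 probe set had 141, 158 and 152 in AA-treated cells and 217, 222 and 137 in control cells. Here control replicate 3 lay below all AA arrays, and the difference did not pass (log2 fold change -0.30, adjusted p = 0.355).

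**Figure D3:**
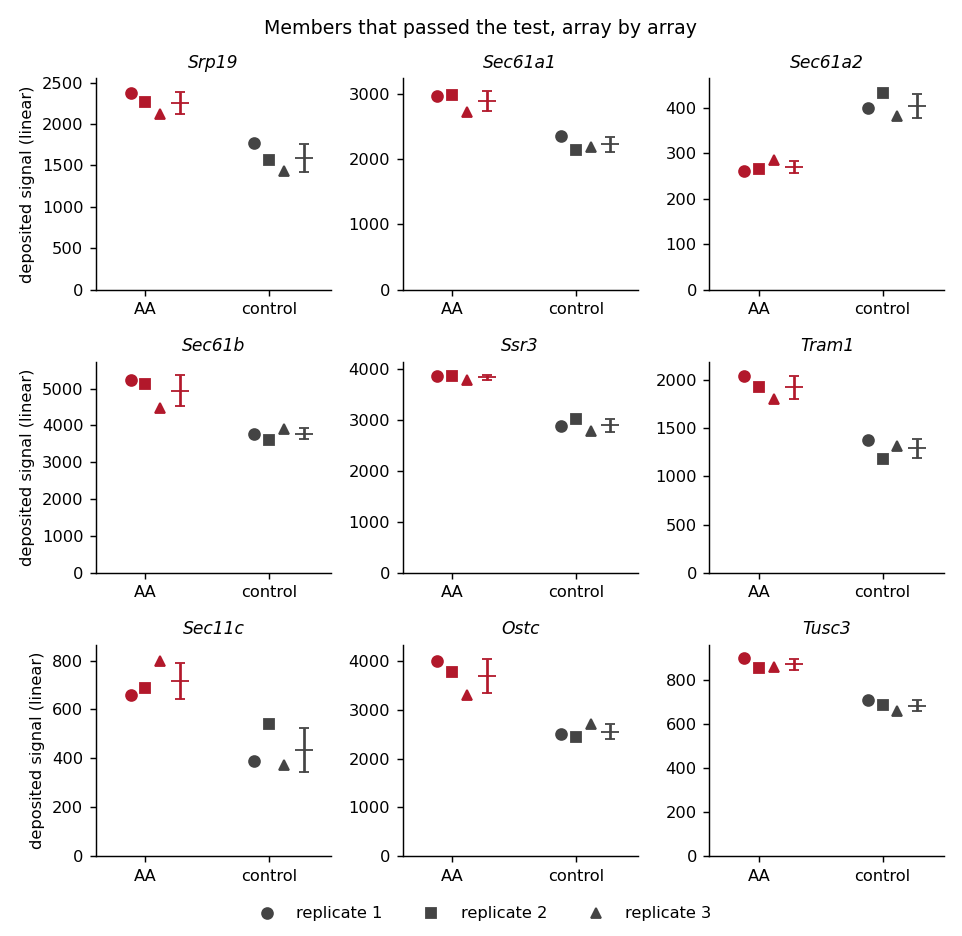
Deposited linear signals (y axis, from 0) of the 9 genes that passed are shown for the AA arrays, in red on the left, and the control arrays, in grey on the right, with a symbol for each replicate number and the mean ± SD (n = 3) beside the points. In none of the 9 genes do the groups overlap, and Sec61a2 is the only gene with the AA arrays below the control arrays.

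Sec62 and Sec63 assist the channel with substrates that enter less readily, Sec63 by recruiting the lumenal chaperone BiP. Neither passed. Sec62 had 1538, 1517 and 1497 in AA-treated cells and 1361, 1303 and 1581 in control cells, and its log2 fold change of 0.08 had an interval of -0.11 to 0.26. For Sec63 the log2 fold change was -0.05, with an interval of -0.26 to 0.15. None of the 10 probe sets of these genes passed.

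The TRAP complex, which sits beside Sec61 and helps chains with weak signal sequences to enter, had positive log2 fold changes for all 4 subunits, and Ssr3 passed. Ssr3, its γ subunit, had signals of 3859, 3857 and 3768 in AA-treated cells and 2876, 3019 and 2774 in control cells (probe set 1447053_x_at). This 1.25-fold rise (log2 0.32 ± 0.07, SE, adjusted p = 0.0466) lay close to the threshold and was kept in 1 of 9 fits with a pair or an array left out. Affymetrix gives the suffix x to probe sets that may also bind other transcripts. The brightest probe sets of Srp14, Stt3a and Rpn1 carry it too, as does that of Ckap4, a gene listed further below. The other Ssr3 probe set did not pass (log2 fold change 0.18, adjusted p = 0.210). Ssr1, the α subunit, differed by 0.13 at its brightest probe set (adjusted p = 0.374), where the AA signals were 3522, 3239 and 3156 and the control signals 2881, 2625 and 3068. However, 2 of its 3 dimmer probe sets passed as higher. In the brighter of these the AA arrays had 1014, 1062 and 951 and the control arrays 728, 633 and 496 (log2 fold change 0.73, adjusted p = 0.00625). Ssr2 and Ssr4 differed by 0.22 and 0.13 on the log2 scale, with adjusted p = 0.184 and 0.397.

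The TRAM proteins, which contact nascent chains in the membrane next to Sec61, had the highest group median, a log2 fold change of 0.52. Tram1 had 2042, 1925 and 1806 in AA-treated cells and 1379, 1181 and 1311 in control cells (probe set 1423732_at), a gap wider than the spread within either group. It rose 1.46-fold (95% interval 1.30 to 1.64; log2 0.55 ± 0.07, SE, adjusted p = 0.00515) and was the only member whose call was kept in all 9 fits with a pair or an array left out. A dim Tram1 probe set gave a log2 fold change of 0.43 and did not pass. Tram2, a paralogue that has been linked to type I collagen synthesis, had signals of 535, 448 and 399 in AA-treated cells and 346, 294 and 365 in control cells. Although its arrays did not overlap, the difference of 0.49 on the log2 scale did not pass (adjusted p = 0.0569), and it was 0.67, 0.66 and 0.15 in replicates 1, 2 and 3.

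Signal peptidase contains a catalytic subunit, Sec11a or Sec11c, and the accessory subunits Spcs1, Spcs2 and Spcs3. Of these 5 genes only Sec11c passed. Its signal (probe set 1460698_a_at) was 661, 686 and 799 in AA-treated cells and 390, 540 and 372 in control cells. Control replicate 2 stood well above the other control arrays but below all AA arrays. The rise of 1.69-fold was the largest among the members (95% interval 1.37 to 2.09; log2 0.76 ± 0.13, SE, adjusted p = 0.0166), and it differed in size between replicates 1, 2 and 3, at 0.78, 0.37 and 1.12 on the log2 scale. The call was kept in 5 of 9 fits with a pair or an array left out. A second Sec11c probe set, with signals between 11.9 and 18.6, gave a log2 fold change of -0.28 (adjusted p = 0.743).

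Sec11a, the paralogue of Sec11c, had 2236, 2225 and 2058 in AA-treated cells and 2118, 1752 and 1837 in control cells. The groups overlapped, with a log2 fold change of 0.14 (interval -0.03 to 0.32, adjusted p = 0.391). Spcs1, Spcs2 and Spcs3 had log2 fold changes of 0.06, 0.10 and 0.07, and their arrays overlapped in each case.

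The oligosaccharyltransferase was the largest group, with 9 genes read, of which Ostc and Tusc3 passed as higher and none as lower. It exists in a form built around Stt3a, which acts on chains as they leave Sec61, and a form built around Stt3b, which glycosylates sites that were passed over. Ostc belongs to the Stt3a form and holds it at the channel. Its signal (probe set 1449139_at) was 3996, 3777 and 3314 in AA-treated cells and 2502, 2449 and 2722 in control cells, without overlap. The rise was 1.38-fold (95% interval 1.22 to 1.55; log2 0.46 ± 0.08, SE, adjusted p = 0.0125), and the call was kept in 8 of 9 fits with a pair or an array left out. A second, dim probe set of Ostc differed by 0.61 on the log2 scale and narrowly missed the threshold (adjusted p = 0.0642).

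Tusc3 and Magt1 are alternative oxidoreductase subunits of the Stt3b form. For Tusc3 the AA arrays had 902, 854 and 860 and the control arrays 708, 686 and 659 (probe set 1421662_a_at), and the groups were clearly apart. This was a 1.28-fold rise (log2 0.36 ± 0.07, SE, adjusted p = 0.0326), and the call was kept in 1 of 9 fits with a pair or an array left out. Magt1 had signals of 1053, 1151 and 1122 in AA-treated cells and 1106, 1239 and 1003 in control cells, interleaved, with a log2 fold change of -0.02 and an interval of -0.21 to 0.18.

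Neither catalytic subunit passed. Stt3a had 2923, 2788 and 2821 in AA-treated cells and 2403, 2636 and 2477 in control cells, which do not overlap as deposited but do after normalization (log2 fold change 0.12, adjusted p = 0.482). Its 4 probe sets ran in both directions, from -0.29 to 0.77. Stt3b, with 2877, 2848 and 2722 in AA-treated cells and 3339, 3149 and 3065 in control cells, had all AA arrays below all control arrays. Its log2 fold change of -0.25 (adjusted p = 0.0823) did not pass, and a dimmer Stt3b probe set gave 0.32.

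The subunits common to both forms did not pass at their brightest probe sets. Rpn1, which helps to present certain substrates, had 5847, 5562 and 5028 in AA-treated cells and 4575, 4186 and 4351 in control cells, without overlap (log2 fold change 0.22, adjusted p = 0.0987), and 2 of its 6 probe sets passed as higher. Dad1, a small structural subunit, had 2826, 2718 and 2641 in AA-treated cells and 2087, 1910 and 2378 in control cells, also without overlap. Its log2 fold change was 0.31 at this probe set (adjusted p = 0.0603) and 0.36 at the other, which passed (adjusted p = 0.0395). Rpn2 and Ddost had log2 fold changes of 0.07 and -0.02, with intervals of -0.11 to 0.26 and -0.18 to 0.13.

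The choice of probe set therefore mattered for several genes. The 32 genes were read by 79 probe sets in all, of which 17 passed as higher and 1 as lower, against 2.71% and 2.5% of all probe sets tested. These shares cover probe sets of any signal. Some of the 17 belong to the same gene, as 4 do to Sec61a1. Under a looser rule added once values were known, by which any passing probe set calls its gene, 12 genes were higher and 1 was lower, the additional genes being Srprb, Ssr1, Rpn1 and Dad1. The same rule called 4.75% of all genes higher and 4.59% lower, and 11.2% and 11.1% of the brightest 25%. With probe sets averaged per gene instead of taking the brightest, 8 were higher, but Sec11c and Ssr3 were replaced by Srprb and Ssr1, and Sec61a2 was no longer called. Averaging called 3.19% of all genes higher and 2% lower.

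**Figure D4:**
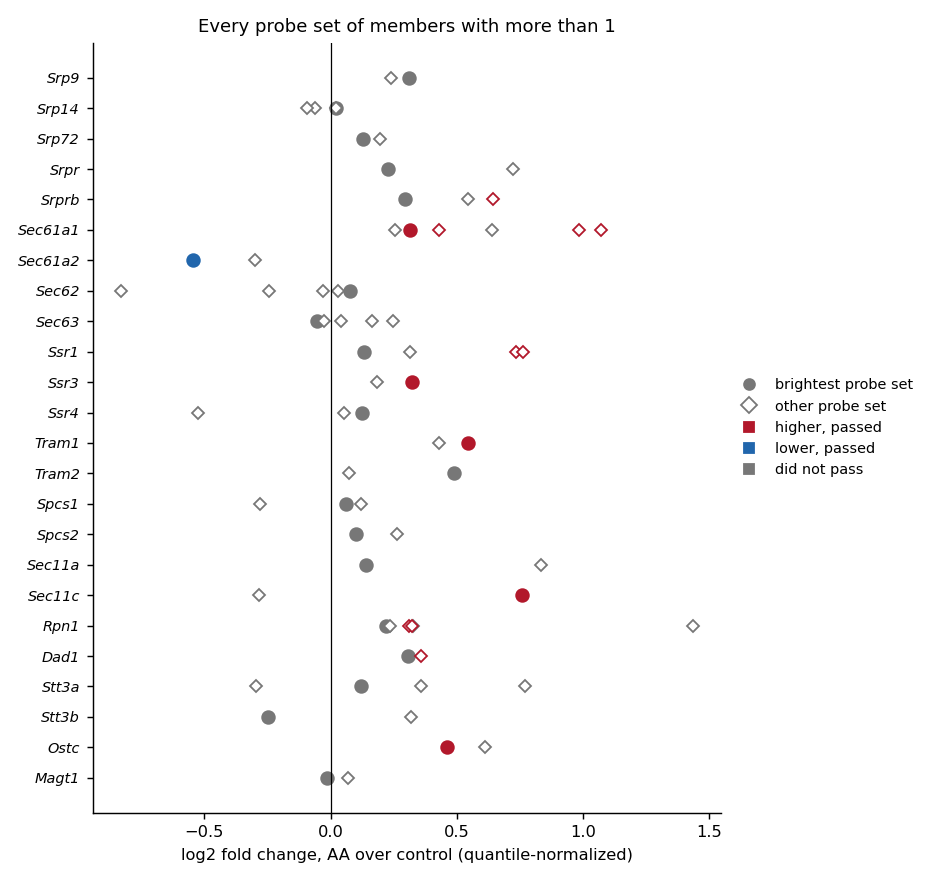
The log2 fold change, AA over control (x axis, quantile-normalized), is shown for all 71 probe sets of the 24 members with more than 1, as a filled circle for the brightest and an open diamond for each other probe set, in red or blue where it passed. The probe sets of Sec61a1 all lie to the right of 0, whereas those of, for example, Sec62, Ssr4, Stt3a, Stt3b and Sec11c lie on both sides.

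Since the groups contain paralogues that can take each other's place in a complex, the ratio of the 2 signals on each array was compared between AA and control for 5 pairs. With 3 arrays against 3, the exact two-sided permutation test cannot go below p = 0.1, which is the value when the groups do not overlap at all. The Sec61a2/Sec61a1 ratio differed by -0.86 on the log2 scale, with an SD of 0.08 over AA arrays and 0.09 over control arrays, and the groups did not overlap (exact permutation p = 0.1, adjusted over the 5 pairs 0.125). The Sec11c/Sec11a ratio was higher in AA by 0.62 (SD 0.16 over AA arrays and 0.39 over control arrays), that of Tusc3/Magt1 higher by 0.37 (0.11 and 0.14), and that of Stt3b/Stt3a differed by -0.37 (0.05 and 0.10), with the same p for each. The Tram2/Tram1 ratio overlapped between the groups, with a difference of -0.06 and SDs of 0.18 and 0.10 (exact permutation p = 0.8, adjusted 0.8). For Sec61a2/Sec61a1 the separation was fixed beforehand, since each gene had separated on its own in opposite directions. For Sec11c/Sec11a, Tusc3/Magt1 and Stt3b/Stt3a it was fixed too. There the ranges of the single genes kept the ratios apart however the arrays of a group were matched. The ratios that separated therefore add nothing to the values of the single genes. All ratios used the brightest probe sets, and dimmer probe sets gave log2 fold changes of 0.32 for Stt3b and -0.29 for Stt3a.

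**Figure D5:**
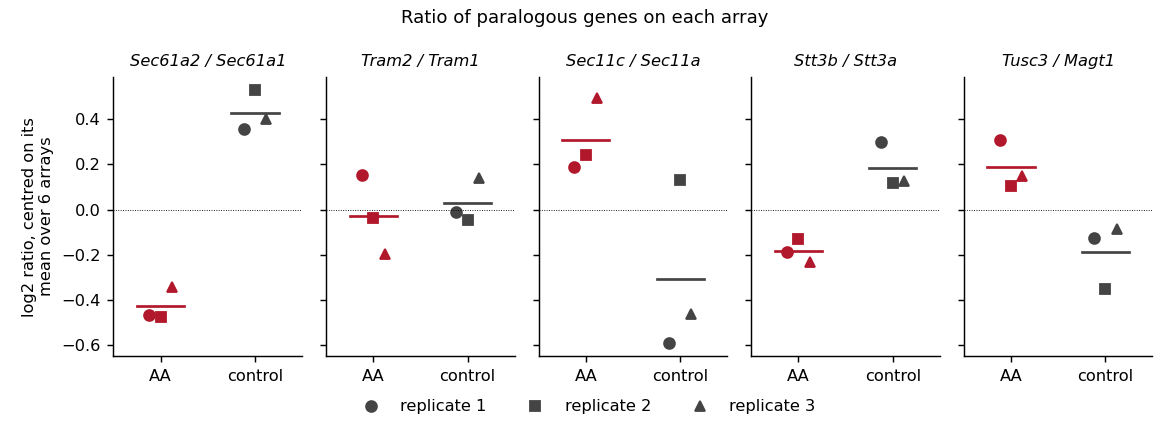
For 5 paralogue pairs, the log2 ratio of the quantile-normalized signals on each array (y axis), centred on its mean over the 6 arrays, is shown for the AA arrays on the left and the control arrays on the right, with a symbol for each replicate and a line at each group mean. The groups are apart in 4 pairs, with Sec61a2/Sec61a1 and Stt3b/Stt3a lower in AA and Sec11c/Sec11a and Tusc3/Magt1 higher, and they overlap for Tram2/Tram1.

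Genes that act before, beside or after these complexes were taken from 8 lists with 72 genes, of which 70 could be read. Of these, 8 were higher and 1 was lower in AA, and their median log2 fold change was 0.06, against -0.02 over all genes. Over all genes read, 4.07% were higher and 3.85% lower, and among the brightest 25% of genes 9.17% and 9.06%. Whether the lists held more calls than other genes of similar signal was not tested. Synthesis of the dolichol-linked glycan, the donor for the oligosaccharyltransferase, was read through 22 genes, and only Alg5, which makes the glucose donor for the last steps, rose. Alg5 had signals of 660, 608 and 514 in AA-treated cells and 399, 363 and 309 in control cells, well apart (log2 fold change 0.77 ± 0.08, SE, adjusted p = 0.00192). The median of this list was 0.05. Among 8 genes of glycan trimming and lectin chaperones, Mogs, the glucosidase that removes the first glucose after transfer, rose by 0.49 on the log2 scale (adjusted p = 0.0186) and the list median was -0.09. None of the 3 other oligosaccharyltransferase subunits passed, with a median of 0.19.

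The list of other translocon and rough ER membrane proteins had the highest median of the 8, 0.27, and 3 of its 8 genes rose and 1 fell. Rrbp1, the ribosome receptor of the rough ER, was higher by 0.40 on the log2 scale (adjusted p = 0.0181). Serp1, a small protein that protects membrane proteins at Sec61, was higher by 0.35 (adjusted p = 0.0342) and Ckap4, a rough ER sheet protein, by 0.31 (adjusted p = 0.0490). Ccdc47, part of a translocon for multipass membrane proteins, fell to 1740, 1740 and 1615 in AA-treated cells, against 2081, 2131 and 2018 in control cells (log2 fold change -0.35, adjusted p = 0.0255). In the lumenal Hsp70 system Dnajc1, a J protein near the ribosome, was the only 1 of 8 to rise (log2 fold change 0.46, adjusted p = 0.0166).

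Tail-anchored and certain other membrane proteins are inserted by machinery other than Sec61, and lipid anchors are added in the ER after entry. Of 6 genes for insertion of tail-anchored proteins, Get1, a subunit of the receptor in the ER membrane, rose to 1095, 1087 and 1009 in AA-treated cells, against 642, 644 and 704 in control cells (log2 fold change 0.69, adjusted p = 0.00323). None of the 10 genes of the ER membrane protein complex passed and their median was -0.10. Of 5 genes of the GPI transamidase, which attaches lipid anchors, Pigk, the catalytic subunit, rose (log2 fold change 0.56, adjusted p = 0.0490), and its difference was 0.34, 0.36 and 0.96 in replicates 1, 2 and 3.

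Markers were examined to check the cell type. Of 12 osteoblast markers 8 could be read, and Alpl (log2 fold change 1.52), Ibsp (1.53) and Pth1r (0.85) rose. The signals of Pth1r overlapped between the groups, at 2443, 1762 and 1457 in AA-treated cells and 1507, 968 and 681 in control cells. Col1a2, Sp7, Phex and Dmp1 did not pass, with log2 fold changes of 0.04, 0.29, -0.56 and 1.58. Col1a1, the gene of the main procollagen chain, had signals of 8001, 7188 and 6179 in AA-treated cells and 6485, 5662 and 6010 in control cells, near the top of the array's range, and did not pass (log2 fold change 0.11, adjusted p = 0.417). Of 5 chondrocyte markers 1, Col2a1, rose (1.18), and of 6 macrophage markers 1, Csf1r, rose (1.81), while 4 of the 6 lay below the median signal of all probe sets. The summed signal of the macrophage list was 173 to 216 on the AA arrays and 97.5 to 126 on the control arrays, and most of it came from Csf1r (mean 87.4 on the AA arrays and 24.5 on the control arrays) and Cd14 (83.3 and 62.2). Ptprc, Adgre1 and Tyrobp had signals between 0.328 and 8.54 over all arrays, with log2 fold changes of 0.45, -0.55 and -0.87 that did not pass. The chondrocyte list summed to 472 to 571 on the AA arrays and 361 to 427 on the control arrays. Most of it came from Col2a1 (mean 306 on the AA arrays and 138 on the control arrays) and Sox9 (169 and 220). Sox9 was lower on every AA array than on every control array but did not pass (log2 fold change -0.33, adjusted p = 0.283). Acan, Comp and Matn3 did not pass either, at 1.21, -0.21 and 0.26 on the log2 scale. None of the adipocyte, skeletal muscle or endothelial markers that could be read passed (6, 6 and 5 genes), and their summed signals overlapped between the groups, at 68.4 to 81.5 on the AA arrays and 50.2 to 76.1 on the control arrays for adipocyte, 89.6 to 94.7 and 87.7 to 113 for muscle and 19.3 to 39.1 and 25.1 to 34.2 for endothelial markers. Whether such cells contributed to the values of the ER genes was not tested, and in bulk RNA a change in the share of a cell type cannot be told apart from a change in RNA per cell.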

How the data were processed

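Per the labels, RNA of 3 AA and 3 control cultures was read on Affymetrix Mouse Genome arrays. The labels state no volume for the AA dose, which is given per ml from the methods. The deposited table holds linear intensity per probe set, made with MAS5 (no version given) according to the submitters' processing notes. Each array was scaled to a trimmed mean of 150 (2% left off at each end). The quantile normalization and GC-RMA in the paper's methods are not in these values, and the table has no detection calls. After 64 of 45101 probe sets were set aside as controls, log2 signals were quantile-normalized and fitted with limma 3.58.1 (R 4.3.3), with a block for the replicate number, after the paired tests of the study's methods, moderated variances following the mean signal, and Benjamini-Hochberg adjustment over 45037 probe sets. In GEO's platform annotation 34945 probe sets have 1 gene, 932 have several and 9160 have none. The number of arrays limits the precision. Members and lists were chosen with earlier results of these data known, so no list was tested. The genes named are all members and, in each list, up to 4 genes per direction that passed, with the smallest p. The code of the fit was run on simulated arrays whose spread followed the mean signal, as the fit itself assumes. Such a run cannot tell whether the calls in these data are right. Alternatives covered the block, scaling, an added 50, a signal filter, the variance trend, the methods' t-test, left-out replicates and the probe set rule.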

Additional observations from a re-analysis of the deposited data

How the results depend on the processing

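The methods name paired tests, but same-numbered arrays deviated together at r = 0.017, 0.004 and 0.010 across all probe sets and at 0.18, 0.03 and 0.09 across those above the median signal, where the members lie. Differently numbered arrays ran between -0.14 and 0.05 there. AA replicate 2 correlated best with control replicate 3 in both, so not every pair held together. With no replicate block, 8 members were higher and 1 was lower, the same genes, with a median log2 fold change of 0.14. Of the 8 higher and 1 lower, signals as deposited gave 7 and 1, and 50 added to every signal 5 and 1 (1148 and 1212, and 788 and 655, over all probe sets). Median centring gave 2 higher (Tram1 and Sec11c) and 1 lower, while over all probe sets it gave 842 higher and 1291 lower, against 1219 and 1124 with quantile normalization. Testing probe sets above the median signal alone, which halved the number of tests, gave 12 higher and 2 lower, and 1585 and 1574 over all 22518 tested. A prior variance with no trend gave 0 and 0 at the adjusted threshold (4 and 1 at unadjusted p under 0.05), and 0 and 0 among all 45037 probe sets (2587 and 2616). The methods' t-test gave 0 and 0 after Benjamini-Hochberg adjustment (8 and 2 at unadjusted p under 0.05), likewise 0 and 0 among all probe sets (2612 and 2827). At the methods' own threshold of 0.01 it gave 4 and 0, and 706 and 736 among all probe sets. Probe sets averaged per gene gave 8 and 0, and the rule that any probe set may pass, chosen after seeing the data, 12 and 1. The median log2 fold change was 0.20 with signals as deposited and 0.24 with averaged probe sets. The causes of these differences were not tested.

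Leaving out a replicate pair or an array gave 2 to 10 genes higher, 0 to 1 lower and a median of 0.16 to 0.17 (pairs) or 0.15 to 0.17 (arrays). Counts higher were 4, 2 and 10 without replicate 1, 2 or 3. With no block they were 2, 2 and 2 without AA replicate 1, 2 or 3 and 6, 4 and 6 without control replicate 1, 2 or 3. Over all probe sets, 1071, 556 and 1169 were higher without replicate 1, 2 or 3, against 1219 with all arrays. With no block, 468, 380 and 632 were higher without AA replicate 1, 2 or 3, against 1089 with all arrays. Without control replicate 1, 2 or 3 and with no block, 1160, 496 and 742 were higher. Sec61a2 lost its call without replicate 2 and without AA replicate 2. Of the 9 genes called, 0 changed direction in any alternative. Changes of direction came in 10 genes that had not passed. Averaged probe sets gave -0.028 for Srp14, -0.20 for Sec62, 0.075 for Sec63, -0.12 for Ssr4, -0.033 for Spcs1, 0.036 for Stt3b and 0.026 for Magt1. Median centring gave -0.0094 for Spcs3, and signals as deposited 0.019 for Ddost. With a pair left out, values ran from -0.030 to 0.075 for Srp14, from -0.00086 to 0.14 for Rpn2, from -0.051 to 0.0073 for Ddost and from -0.11 to 0.043 for Magt1. Without AA replicate 1, Srp14 was at -0.0027 and Magt1 at 0.021, and without AA replicate 3, Sec63 at 0.0036 and Spcs3 at -0.0031. Without control replicate 2, Magt1 was at 0.071, and without control replicate 3, Srp14 at -0.052. With 3 arrays per group, differences near 0.3 on the log2 scale passed for some members (Sec61b, 0.29) and not for others (Srp9, 0.31). Tram2, with an SE of 0.12 against 0.07 for Sec61b, did not pass at 0.49.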
